A study of Rattus norvegicus with 15 samples.

Results

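The nuclear-encoded genes of oxidative phosphorylation were followed after x-ray exposure in cultures labelled as primary rat brain microvascular endothelial cells (BMECs). The members were chosen by name. They are the genes outside the mitochondrial chromosome whose symbol starts with Nduf, Sdh, Uqcr or Atp5, or with Cox followed by 4, 5, 6, 7 or 8. A total of 98 genes carried such a name, and 91 of them reached a mean of at least 0.5 FPKM (mapped fragments scaled by transcript length and library size) over the 15 libraries, among 17895 genes that did so. They comprised 35 subunits of complex I, 4 of complex II, 8 of complex III, 16 of complex IV, 16 of complex V, 11 assembly factors and 1 inhibitor of complex V. The cells came from the cerebral microvessels of Sprague-Dawley rat littermates (Spraque-Dawley in the labels) aged 2 to 3 weeks and were irradiated at 60% confluence with a linear accelerator at 2.5 Gy per min. The control group received no x-rays but all other handling, and the other 4 groups were collected 12 h or 24 h after a dose of 5 Gy or 20 Gy. Each group held 3 libraries of poly-A RNA, described as biological replicates, although the labels do not say which rats gave which library, so the p-values measure the spread between these libraries. The labels give 12 h of culture for the control group, and unexposed cells at 24 h were not analysed here. For the 24 h groups, exposure and longer culture therefore cannot be told apart.

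Oxidative phosphorylation passes electrons from NADH through complex I, or from succinate through complex II, to ubiquinone, and then through complex III and cytochrome c to oxygen at complex IV. Complexes I, III and IV pump protons across the inner mitochondrial membrane, and complex V, the ATP synthase, uses the gradient to make ATP. Mitochondrial DNA encodes core subunits of every complex except complex II, and the nucleus encodes all remaining subunits and the assembly factors. Brain endothelial cells are known for a high content of mitochondria compared with endothelium of other tissues.

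Between 5.44 and 7.49 gigabases were aligned per library, as read from the steps between low FPKM values. The labelled cell type was checked against its markers. Of 11 endothelial marker genes in the table, 2 (Kdr and Flt1) reached a mean of 0.5 FPKM, whereas Cdh5, Tek, Tie1, Vwf and Cldn5 were below it, and the markers summed to between 2.48 and 6.63 FPKM per library. The 6 fibroblast markers, all above 0.5 FPKM, summed to 1798 to 1987 FPKM in the control group, 1273 to 1547 at 12 h and 272 to 326 at 24 h. The fibroblast sum was thus far above the endothelial sum in every library, and the markers did not bear out the labelled cell type. The sum of 6 pericyte markers was 54.4 to 62.1 FPKM in the control group, 24.3 to 26.9 FPKM 24 h after 5 Gy and 16 to 21.3 FPKM 24 h after 20 Gy, with 3 of the 6 below 0.5 FPKM and Kcnj8 at 0. For 5 astrocyte markers, the sums were 514 to 761 FPKM in the control group and 322 to 435 at 24 h. At 12 h, they were 627.5 to 1175 FPKM after 5 Gy and 466 to 675.7 after 20 Gy. The highest of these markers was Gja1, with a mean of 537.6 FPKM over all libraries, while Gfap was below 0.5 FPKM and Aqp4 at 0. For 5 microglia markers, the sums were 21.2 to 25.2 FPKM in the control group and 8.57 to 13.3 at 24 h, with only Tmem119 above 0.5 FPKM. The fibroblast, pericyte, astrocyte and microglia sums were lower at 24 h, as were the members described next. In the pericyte, astrocyte and microglia sets, several markers were below 0.5 FPKM, so these sums do not show that the cell types were present. The endothelial sum was 3.9 to 5.3 FPKM in the control group. It overlapped at 24 h (3.8 to 6.5 after 5 Gy, 2.5 to 5.1 after 20 Gy). In the same order, 4 smooth muscle markers also overlapped (29.4 to 45.4, 22 to 31.3 and 24.5 to 46 FPKM). The sum of 4 neuron markers (5.58 to 8.5, 8.87 to 11 and 6.31 to 12.1 FPKM) was above the control group after 5 Gy. The part of the markers in the 24 h results was not tested.

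The members were expressed at high levels for their number. They held between 1.73% and 1.97% of all FPKM in the control libraries. The highest mean over all libraries was found for Cox4i1, the common isoform of the complex IV subunit 4 (391 FPKM), Atp5f1b, the catalytic beta subunit of complex V (377 FPKM), and Cox6a1, the common isoform of subunit 6A (328 FPKM). The median member of complex I stood at 50.7 FPKM, that of complex II at 76.4, of complex III at 74.0, of complex IV at 94.6 and of complex V at 117. The assembly factors had a median of 5.61 FPKM. FPKM is divided by transcript length, so these levels can be set beside each other.

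Cox6a2 and Cox8b, muscle isoforms of complex IV, were near 0. Cox6a2 had a mean of 0.0131 FPKM and Cox8b of 0.0453 FPKM. Cox7b2 and Cox8c, isoforms known from testis, were listed at 0 in every library, as were Cox6c-ps1 and the complex II assembly factor Sdhaf1. The row named Ndufs6 had a mean of 0.0309 FPKM and lies where RefSeq lists a pseudogene, so the Ndufs6 subunit was not measured here. These 7 genes were below the limit and were not tested. Just inside it were Ndufa4l2, a paralog of Ndufa4 known from hypoxia (0.52 FPKM), and the complex I assembly factors Ndufaf4 (1.81 FPKM) and Ndufaf2 (1.99 FPKM).

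The summed FPKM of all 5 complexes was lower at 24 h than in the control group, and more so after 5 Gy than after 20 Gy. For complex I, the 35 subunits summed to 2038, 2152 and 2502 FPKM in the control libraries. The sums were 2142, 2073 and 2187 FPKM 12 h after 5 Gy, and 2045, 2080.3 and 1876 FPKM 12 h after 20 Gy. At 24 h, they were 1506, 1508 and 1534 FPKM after 5 Gy, and 1801, 1705 and 1698 FPKM after 20 Gy. No 24 h library overlapped with the control group, and every library of the 5 Gy group was lower than every library of the 20 Gy group. The third control library was the highest of its group in all 5 complexes, and without it the 24 h sums of complex I stood at log2 ratios of -0.47 after 5 Gy and -0.27 after 20 Gy, compared with -0.56 and -0.36. In these bulk libraries, fewer cells of a type and less RNA per cell cannot be told apart.

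Expressed relative to the control mean, the 24 h means after 5 Gy were 68.0% for complex I, 74.8% (complex II), 62.4% (complex III), 69.9% (complex IV) and 70.2% (complex V). After 20 Gy, they were 77.8%, 81.1%, 75.0%, 84.3% and 77.4% in the same order. All 24 h libraries were below all control libraries and all 12 h libraries in each of the 5 complexes. The gap to the 12 h libraries was small in complexes II, IV and V. The highest 24 h and lowest 12 h sums were 303.92 and 306.55 FPKM in complex II. They were 1930.7 and 1931.6 FPKM in complex IV, and 1905.7 and 1910.8 FPKM in complex V. This order and the overlap between doses that follows are given for FPKM as deposited only. The libraries of the 2 doses at 24 h did not overlap in complexes I, III, IV and V, and overlapped in complex II, which has the fewest subunits. At 12 h, the means ranged from 93.6% to 95.7% after 5 Gy and from 88.5% to 94.1% after 20 Gy, and the libraries overlapped with the control group in every complex. With quantile normalization, the log2 ratios of the sums at 24 h were between -0.43 and -0.19 after 5 Gy and between -0.22 and -0.062 after 20 Gy, compared with between -0.68 and -0.42 and between -0.42 and -0.25 in the FPKM as deposited. The 11 assembly factors together were at 106% and 105% of the control mean at 12 h, and at 82.6% and 81.3% at 24 h.

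**Figure D1:**
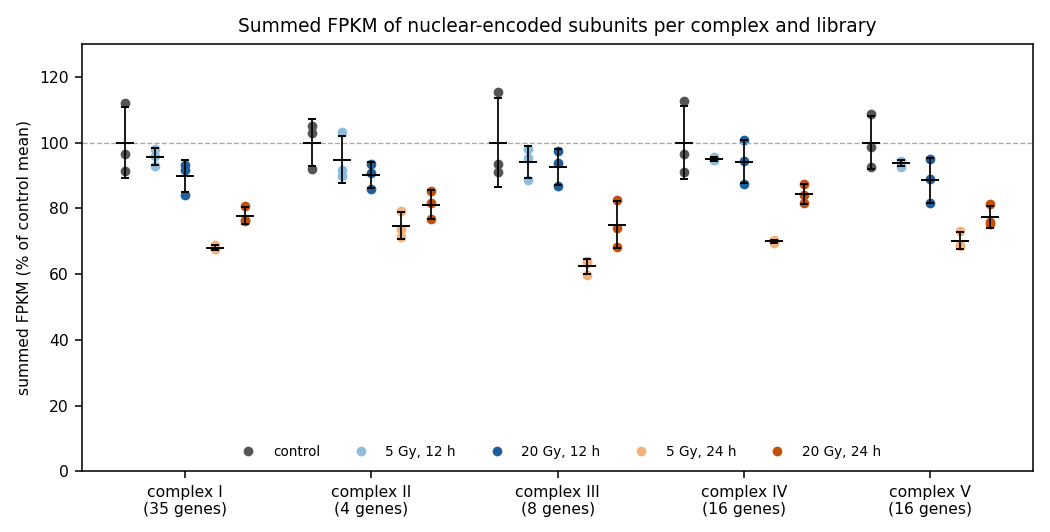
Summed FPKM of the nuclear-encoded subunits of each complex, in percent of the control mean (y axis), for complexes I to V (x axis). Points are libraries, and bars are the mean ± SD of 3 libraries per group. The 24 h libraries lie below the control and 12 h libraries in all 5 complexes, with means between 62.4% and 84.3%. The margin to the 12 h libraries is small in complexes II, IV and V.

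Single genes were then compared. Differences are given on the log2(FPKM + 1) scale, which understates the change of low genes, and a gene was called when its adjusted p (limma, Benjamini-Hochberg over 17895 genes) was under 0.05 and its fold change at least 1.5. All comparisons with the control group share the same 3 control libraries.

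Few members were changed at 12 h. After 5 Gy, 3 of the 91 were called, 2 higher and 1 lower, compared with 4.98% and 4.96% of all genes tested. After 20 Gy, 1 was called, which was higher, compared with 4.9% of all genes. The median log2 change of the members was -0.06 after 5 Gy and -0.15 after 20 Gy, compared with 0.03 and 0.01 over all genes. Called genes were assembly factors of complex II, which rose, and 1 isoform of complex IV, which fell.

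Sdhaf4, which assists the assembly of the succinate dehydrogenase subunit Sdha, was the only member called 12 h after both doses. Its level was 15, 10.8 and 14.4 FPKM in the control group, 18.9, 23.8 and 22.8 FPKM 12 h after 5 Gy and 25.2, 29.1 and 22.4 FPKM 12 h after 20 Gy. No 12 h library overlapped with the control group. The log2 change was 0.67 ± 0.17 (SE), adjusted p = 0.0157 after 5 Gy, and 0.89 ± 0.17 (SE), adjusted p = 0.00369 after 20 Gy. At 24 h, the levels of 10.9, 15.6 and 12.6 FPKM and 16.1, 19.5 and 13 FPKM overlapped with the control group again.

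Sdhaf3, an assembly factor for the iron-sulfur subunit Sdhb, was at 2.9, 2.58 and 2.48 FPKM in the control group and 4.31, 6.56 and 3.65 FPKM 12 h after 5 Gy, a log2 change of 0.65 ± 0.18 (SE), adjusted p = 0.0236. The third called member was Cox4i2, a second isoform of the complex IV subunit 4, known from lung and from responses to low oxygen. It was at 4.78, 4.14 and 6.75 FPKM in the control group, 1.95, 2.31 and 0.916 FPKM 12 h after 5 Gy and 3.19, 2.27 and 2.55 FPKM 12 h after 20 Gy. All exposed libraries were below all control libraries. The log2 change was -1.21 ± 0.26 (SE), adjusted p = 0.00609 after 5 Gy, and -0.75 ± 0.26 (SE), adjusted p = 0.0669 after 20 Gy, where it was not called. Without the second control library, or without the second library of the 5 Gy group, only Cox4i2 was called 12 h after 5 Gy. With named transcripts alone, none of the 3 genes was called at this dose and time, and Sdhaf4 was still called 12 h after 20 Gy.

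At 24 h, most members were lower than in the control group, with calls in every complex after 5 Gy. After 5 Gy, 38 of 91 members (41.8%) were called lower and 1 (1.1%) higher, compared with 20.8% and 20.5% of all genes tested. After 20 Gy, 19 (20.9%) were called lower and none higher, compared with 23.3% and 17% of all genes. The share called lower after 20 Gy was thus near that of all genes. On the adjusted p alone, 68 members were lower after 5 Gy (30.6% of all genes) and 53 after 20 Gy (34.1% of all genes). The median log2 change of the members was -0.53 after 5 Gy and -0.37 after 20 Gy, whereas over all genes it was -0.05 and -0.14. In 71 members after 5 Gy and 51 after 20 Gy, the 3 libraries were all below the control libraries, compared with 35.1% and 36.7% of all genes. The control libraries are the same for both doses. The members were also a smaller share of all FPKM at 24 h, 1.36% to 1.41% after 5 Gy and 1.48% to 1.57% after 20 Gy. When FPKM was rescaled to the same sum in every library, 20 members were called lower and 1 higher after 5 Gy, with a median of -0.40 compared with 0.05 over all genes, and 11 were called lower after 20 Gy. Without the third control library, 28 members were called after 5 Gy and 13 after 20 Gy. The shares of all genes called in these alternatives are not given here, so their counts have no background beside them.

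**Figure D2:**
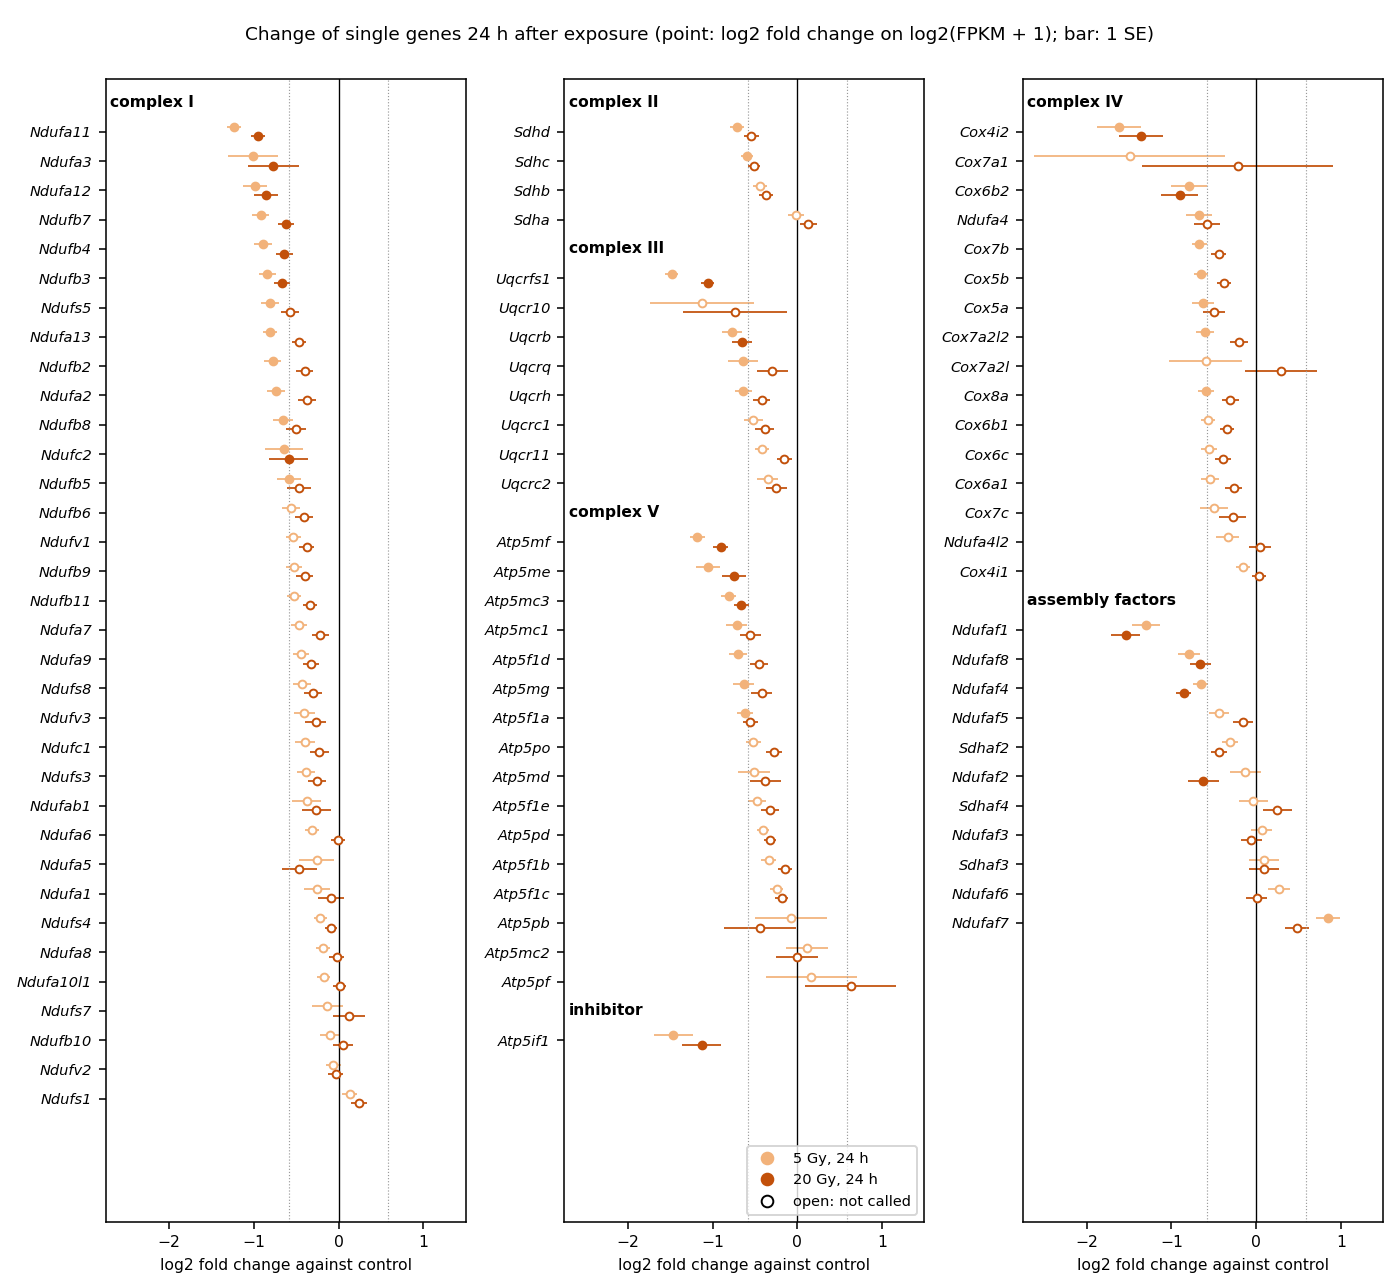
Log2 fold change against the control group on log2(FPKM + 1) (x axis) of the members shown (y axis), 24 h after 5 Gy and 20 Gy. Points are estimates, bars are 1 SE, filled points were called, and dotted lines mark a fold change of 1.5. Most genes lie left of 0, with medians of -0.53 after 5 Gy and -0.37 after 20 Gy, and Uqcrfs1, Cox4i2, Ndufaf1 and Atp5if1 lie farthest to the left among the called genes.

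In complex I, which oxidises NADH, the calls fell on the accessory subunits. The 7 nuclear core subunits, which carry the flavin, the iron-sulfur clusters and the ubiquinone site, had no call at either dose. The 28 accessory subunits, which surround this core, included 13 called lower after 5 Gy and 7 after 20 Gy. Over all 35 subunits, 37.1% were called lower after 5 Gy and 20% after 20 Gy, compared with 20.8% and 23.3% of all genes. The median log2 change after 5 Gy was -0.39 over the core subunits and -0.54 over the accessory subunits, and after 20 Gy it was -0.25 and -0.40. The difference between the classes was not tested. The largest fall among the accessory subunits was that of Ndufa11, which sits in the membrane arm. Its transcript has 4 exons on the reverse strand of Rnor_6.0 (chr9:10334090-10338216). It was at 132, 143 and 172 FPKM in the control group, 115, 115 and 115 FPKM 12 h after 5 Gy and 118, 118 and 110.4 FPKM 12 h after 20 Gy. At 24 h, it was at 60.8, 65.8 and 60.8 FPKM after 5 Gy and 73.2, 78.1 and 76.8 FPKM after 20 Gy. The control, 12 h and 24 h libraries followed each other without overlap. The log2 change at 24 h was -1.23 ± 0.08 (SE), adjusted p = 1.09e-07 after 5 Gy, and -0.95 ± 0.08 (SE), adjusted p = 1.06e-06 after 20 Gy.

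The other accessory subunits called after 5 Gy were Ndufa3, Ndufa12, Ndufb7, Ndufb4, Ndufb3, Ndufs5, Ndufa13, Ndufb2, Ndufa2, Ndufb8, Ndufc2 and Ndufb5, with log2 changes between -1.01 and -0.59. Ndufa3, Ndufa12, Ndufb3, Ndufb4, Ndufb7 and Ndufc2 were also called after 20 Gy. The level of Ndufa3 was high in 1 control library, with 16.1, 12.5 and 34.3 FPKM in the control group compared with 7.32, 9.64 and 10.4 FPKM 24 h after 5 Gy, and without the third control library its call after 20 Gy was lost (log2 change -0.36, adjusted p = 0.185). Among the core subunits, Ndufv1, which binds NADH and the flavin, showed a log2 change of -0.53 after 5 Gy (adjusted p = 2.14e-04) and -0.38 after 20 Gy (adjusted p = 0.00286).

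The other core subunits of complex I varied in their change at 24 h. Ndufs1, the largest iron-sulfur subunit, was at 39.3, 40.3 and 42.9 FPKM in the control group, 45.5, 45.4 and 43.4 FPKM after 5 Gy and 56.3, 47.9 and 42.1 FPKM after 20 Gy. The log2 change was 0.13 after 5 Gy (adjusted p = 0.227) and 0.24 after 20 Gy (adjusted p = 0.0326). Ndufv2, which holds an iron-sulfur cluster beside Ndufv1, showed -0.06 and -0.03 (adjusted p = 0.555 and 0.768). Ndufs3 and Ndufs8, scaffold and iron-sulfur subunits of the arm in the matrix, were under the fold limit after 5 Gy, with log2 changes of -0.39 (adjusted p = 0.00629) and -0.43 (adjusted p = 0.00333), and no library of this group reached the control group in either gene. After 20 Gy, they showed -0.25 (adjusted p = 0.0546) and -0.30 (adjusted p = 0.0265). Ndufs7, an iron-sulfur subunit near the ubiquinone site, showed -0.13 and 0.13 (adjusted p = 0.574 and 0.582). With named transcripts alone, the change of Ndufs7 was 3.35 after 5 Gy. Within the same complex, log2 changes 24 h after 5 Gy ranged from -1.23 for Ndufa11 to 0.13 for Ndufs1.

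Complex II, succinate dehydrogenase, also belongs to the citric acid cycle and has no subunit encoded in mitochondria. Sdha, the flavin subunit that oxidises succinate, was at 87.1, 93.2 and 88.9 FPKM in the control group, 95, 83.2 and 88.3 FPKM 24 h after 5 Gy and 109, 87.4 and 99.7 FPKM 24 h after 20 Gy. The groups overlapped. The log2 changes were -0.02 and 0.13 (adjusted p = 0.902 and 0.283). The membrane anchors Sdhd and Sdhc were called after 5 Gy, with log2 changes of -0.71 (adjusted p = 1.67e-05) and -0.60 (adjusted p = 1.47e-05). They were 2 of 4 subunits, compared with 20.8% of all genes called lower. After 20 Gy, their changes of -0.55 and -0.51 were under the fold limit, as was that of the iron-sulfur subunit Sdhb at both doses (-0.44 and -0.37).

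In complex III, which passes electrons from ubiquinol to cytochrome c, 4 of 8 subunits were called lower after 5 Gy and 2 after 20 Gy. Of all genes, 20.8% and 23.3% were called lower, so the share of 25% after 20 Gy was near that of all genes. Uqcrfs1, the Rieske iron-sulfur protein that takes the first electron from ubiquinol, had the lowest adjusted p of all members at both doses. Its transcript has 2 exons on the forward strand of Rnor_6.0 (chr17:35677984-35682259). It was at 97.6, 101 and 116 FPKM in the control group, 103, 101 and 105 FPKM 12 h after 5 Gy and 101, 104 and 95.3 FPKM 12 h after 20 Gy. At 24 h, it was at 34.9, 38.1 and 37.5 FPKM after 5 Gy and 52.8, 47.2 and 49.6 FPKM after 20 Gy. The control and 12 h libraries overlapped, the 24 h libraries were all lower, and the 5 Gy libraries were below the 20 Gy libraries. The log2 change at 24 h was -1.48 ± 0.08 (SE), adjusted p = 9.69e-09 after 5 Gy, and -1.06 ± 0.08 (SE), adjusted p = 1.56e-07 after 20 Gy.

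The other subunits of complex III changed less. Uqcrc1 and Uqcrc2, the core proteins on the matrix side, showed log2 changes of -0.52 and -0.35 after 5 Gy, both under the fold limit. Uqcrb, which helps to bind ubiquinone, was called after both doses (-0.77 and -0.65), but most of its FPKM lies in a single-exon row on chromosome 1, where RefSeq lists a pseudogene of Uqcrb, and less in the spliced gene on chromosome 7. Uqcrq (-0.64) and Uqcrh (-0.64), the hinge protein that contacts cytochrome c1, were called after 5 Gy. Uqcr11, a small subunit of complex III, was at 173, 188 and 205 FPKM in the control group and changed by -0.42 (adjusted p = 0.0012). Uqcr10 was divided within groups, at 84.4, 26.5 and 77.8 FPKM in the control group and 63, 15.6 and 15.8 FPKM 24 h after 5 Gy, and was not called in any comparison.

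In complex IV, cytochrome c oxidase, 8 of 16 subunits were called lower after 5 Gy and 2 after 20 Gy. These shares were 50% and 12.5%, compared with 20.8% and 23.3% of all genes. Cox4i2 fell the most, with 0.857, 1.28 and 0.882 FPKM 24 h after 5 Gy and 0.605, 1.77 and 2.1 FPKM after 20 Gy, both below the control levels given for 12 h. The log2 change was -1.62 ± 0.26 (SE), adjusted p = 1.45e-04 after 5 Gy, and -1.36 ± 0.26 (SE), adjusted p = 6.11e-04 after 20 Gy. Cox4i1, the isoform that takes the same place in the complex, was at 365, 410.4 and 442 FPKM in the control group, 378, 351 and 362 FPKM after 5 Gy and 419, 383 and 444 FPKM after 20 Gy. Its groups overlapped and its log2 changes were -0.15 and 0.04 (adjusted p = 0.14 and 0.739). Cox4i1 was far more abundant than Cox4i2 in every library.

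Cox5a and Cox5b, which sit next to the catalytic core, were at 92.6, 95.2 and 134 FPKM and 137, 142 and 159 FPKM in the control group and at 63.5, 69.3 and 71.6 FPKM and 91.3, 98.9 and 88.3 FPKM 24 h after 5 Gy. Both were called lower (-0.63 and -0.65), and after 20 Gy both were under the fold limit (-0.50 and -0.38). Cox6b2, an isoform known from testis, was called after both doses (-0.79 and -0.90), from 11.3, 15.3 and 19.7 FPKM in the control group. Its common isoform Cox6b1 changed by -0.57 after 5 Gy, under the fold limit. Ndufa4, named for complex I and now placed in complex IV, was called after 5 Gy (-0.67). The remaining called subunits after 5 Gy were Cox7b, Cox8a (-0.59) and Cox7a2l2, a gene that RefSeq places on another chromosome than the expression table. Cox6a1, the most abundant subunit after Cox4i1, was at 329.6, 377 and 409 FPKM in the control group and 258, 237 and 267 FPKM 24 h after 5 Gy, a log2 change of -0.54 that was under the fold limit (adjusted p = 5.24e-04). Ndufa4l2 was between 0 and 0.885 FPKM over all libraries and was not called at 24 h.

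The levels of 2 subunit 7A genes were divided within groups. Cox7a2l, which helps to join complexes III and IV, was at 53.6, 60.7 and 155 FPKM in the control group, 64.3, 151 and 138 FPKM 12 h after 20 Gy and 53.3, 140.3 and 124 FPKM 24 h after 20 Gy. All 6 libraries of the 5 Gy groups were low, between 50.4 and 61.9 FPKM. Cox7a1, the heart and muscle isoform, was at 15.7, 0.651 and 0.624 FPKM in the control group and 14.5, 17.1 and 0.0946 FPKM 12 h after 20 Gy. Neither was called in any comparison, and nearly all of the FPKM of both genes lies in assembled transcripts without a name.

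In complex V, the ATP synthase, 7 of 16 subunits were called lower after 5 Gy and 3 after 20 Gy. These shares were 43.75% and 18.75%, compared with 20.8% and 23.3% of all genes. Atp5f1b was at 404, 428 and 424 FPKM in the control group, 365, 312 and 317 FPKM 24 h after 5 Gy and 413, 359 and 364 FPKM 24 h after 20 Gy, with log2 changes of -0.34 (adjusted p = 0.00327) and -0.15 (adjusted p = 0.143). Atp5f1a, the alpha subunit, was called after 5 Gy (-0.62), and Atp5f1c, the rotating gamma subunit, was under the fold limit (-0.25).

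The 3 genes for the c subunit, whose ring turns in the membrane and whose mature proteins are identical, did not move together. Atp5mc3 was at 112, 119 and 137 FPKM in the control group, 71.6, 69.6 and 67 FPKM 24 h after 5 Gy and 82.8, 73.9 and 74.8 FPKM 24 h after 20 Gy. It was called lower after both doses, with log2 changes of -0.81 ± 0.09 (SE), adjusted p = 5.83e-06 after 5 Gy, and -0.66 ± 0.09 (SE), adjusted p = 3.55e-05 after 20 Gy. Atp5mc1 was called after 5 Gy (-0.72). Atp5mc2, the most abundant of the 3, was at 141, 138 and 176 FPKM in the control group and 186, 165 and 140.1 FPKM 24 h after 5 Gy, a log2 change of 0.11 ± 0.25 (SE), adjusted p = 0.717. The largest falls in complex V were those of Atp5mf and Atp5me, small membrane subunits, by 1.18 and 1.06 on the log2 scale after 5 Gy. Both were also called after 20 Gy (-0.90 and -0.75). Atp5mg, which helps the synthase to form dimers, was called after 5 Gy (-0.63), as was Atp5f1d, the delta subunit of the central stalk (-0.70). The row named Atp5md is a single exon on chromosome 10, whereas RefSeq places the gene on chromosome 1 under the name Atp5mk, and it showed -0.51 (adjusted p = 0.0315).

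Atp5if1, the inhibitor that stops the synthase from running in reverse and hydrolysing ATP, fell more than any subunit of complex V. Its transcript has 3 exons on the reverse strand of Rnor_6.0 (chr5:150719569-150723321). It was at 200.4, 229.9 and 289 FPKM in the control group, 192, 173 and 141 FPKM 12 h after 5 Gy and 236, 212 and 125 FPKM 12 h after 20 Gy. At 24 h, it was at 66.4, 95 and 98.2 FPKM after 5 Gy and 107, 119 and 98.1 FPKM after 20 Gy. All 24 h libraries were below all other libraries. The log2 change at 24 h was -1.47 ± 0.23 (SE), adjusted p = 1.18e-04 after 5 Gy, and -1.13 ± 0.23 (SE), adjusted p = 9.37e-04 after 20 Gy.

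The assembly factors moved in both directions. Of 11, 3 were called lower and 1 higher 24 h after 5 Gy, compared with 20.8% and 20.5% of all genes. After 20 Gy, 4 were called lower and none higher, compared with 23.3% and 17% of all genes. The share called lower after 5 Gy, 27.3%, was near that of all genes, and after 20 Gy it was 36.4%. Ndufaf1, which acts early in building the membrane arm of complex I, was at 7.11, 6.53 and 6.48 FPKM in the control group and between 6.14 and 7.05 FPKM in the 12 h libraries. At 24 h, it was at 1.96, 2.54 and 1.9 FPKM after 5 Gy and 1.34, 2.69 and 1.15 FPKM after 20 Gy, without overlap with any earlier library. The log2 change was -1.30 ± 0.17 (SE), adjusted p = 2.14e-05 after 5 Gy, and -1.54 ± 0.17 (SE), adjusted p = 5.41e-06 after 20 Gy. Ndufaf8 and Ndufaf4, further factors for complex I, were called lower after both doses, with log2 changes between -0.86 and -0.65.

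Ndufaf7, a methyltransferase of complex I assembly, was the only member called higher at 24 h. It was at 3.84, 3.83 and 5.18 FPKM in the control group, 8.73, 8.24 and 8.39 FPKM 24 h after 5 Gy and 7.28, 6.04 and 5.73 FPKM 24 h after 20 Gy, and both 24 h groups were above the control group without overlap. The log2 change was 0.85 ± 0.14 (SE), adjusted p = 1.92e-04 after 5 Gy. The change 24 h after 20 Gy, 0.48 ± 0.14 (SE), adjusted p = 0.0103, was under the fold limit. Ndufaf2, a late factor of complex I, was the only member called lower after 20 Gy and not after 5 Gy. It was at 2.36, 2.5 and 1.67 FPKM in the control group, 2.47, 1.04 and 2.39 FPKM 24 h after 5 Gy and 1.11, 1.07 and 0.951 FPKM 24 h after 20 Gy, a log2 change after 20 Gy of -0.63 ± 0.18 (SE), adjusted p = 0.0107. The second library of the 5 Gy group lay in the range of the 20 Gy group.

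**Figure D3:**
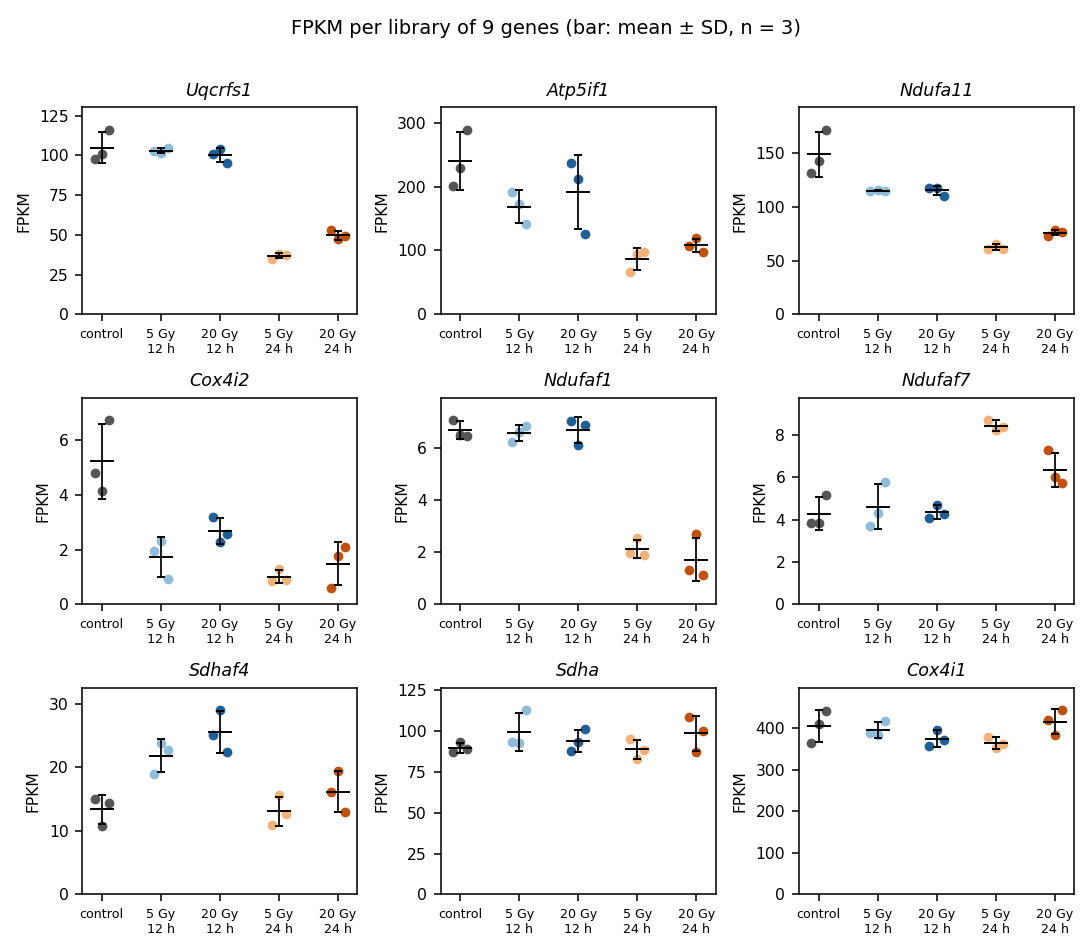
FPKM (y axis, from 0) of 9 genes in each library of the 5 groups (x axis). Points are libraries, and bars are the mean ± SD of 3 libraries. Uqcrfs1, Atp5if1, Ndufa11 and Ndufaf1 are lower in all 24 h libraries than in all control libraries, Cox4i2 is lower in all exposed libraries, Ndufaf7 is higher at 24 h, Sdhaf4 is higher at 12 h, and Sdha and Cox4i1 overlap between the control and 24 h groups.

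The 24 h groups were also compared with the 12 h groups of the same dose, in which the control libraries enter the estimate of the spread but not the difference. After 5 Gy, 27 members (29.7%) were called lower and 1 (1.1%) higher at 24 h, compared with 19.3% and 17.1% of all genes. After 20 Gy, 11 (12.1%) were lower and none higher, compared with 22.1% and 14.1% of all genes. The share called lower after 20 Gy was thus below that of all genes. The medians were -0.48 after 5 Gy and -0.21 after 20 Gy, whereas over all genes they were -0.08 and -0.15. Uqcrfs1 changed by -1.46 after 5 Gy (adjusted p = 1.46e-08) and -0.99 after 20 Gy (adjusted p = 3.39e-07), and Ndufaf1 by -1.28 (adjusted p = 3.21e-05) and -1.54 (adjusted p = 6.98e-06). Without the second library of the 20 Gy group at 12 h, 7 members were called between the times after 20 Gy.

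The doses were compared directly at each time. At 12 h, no member was called between 20 Gy and 5 Gy (0.123% of all genes), and 1 member had an unadjusted p under 0.05 (7.12% of all genes). At 24 h, no member was called (2.42% of all genes), with 30 members at an unadjusted p under 0.05, compared with 20% of all genes. On the adjusted p alone, 3 members were higher after 20 Gy than after 5 Gy at 24 h, compared with 1.35% of all genes. They were Uqcrfs1 (0.43 ± 0.08 (SE), adjusted p = 0.00855), the complex I accessory subunit Ndufa13 (0.34 ± 0.08 (SE), adjusted p = 0.0322) and the complex I accessory subunit Ndufb2 (0.38 ± 0.10 (SE), adjusted p = 0.0499). Ndufa13 was at 127, 134 and 146 FPKM in the control group, 85.1, 70.1 and 75.8 FPKM 24 h after 5 Gy and 100.0, 96.3 and 95.6 FPKM 24 h after 20 Gy. Each of the 3 genes followed the order control, 20 Gy and 5 Gy, without overlap between the groups. The difference between the doses was above 0 in all but 11 of the 91 members.

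The libraries of the doses at 24 h were also set against each other, in FPKM as deposited. In 32 members, all libraries after 20 Gy were above all libraries after 5 Gy, compared with 6.78% of all genes, and in 2 members they were all below, compared with 16.4% of all genes. The 2 members below were the assembly factors Ndufaf7 and Ndufaf4. The median difference of the members was 0.16, compared with -0.07 over all genes. The change from 12 h to 24 h was called different between the doses in no member (0.52% of all genes), with 25 members at an unadjusted p under 0.05, compared with 12.9% of all genes. Without the second library of the 5 Gy group at 24 h, Ndufaf2 was called lower after 20 Gy than after 5 Gy, and without any other library no member was called.

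**Figure D4:**
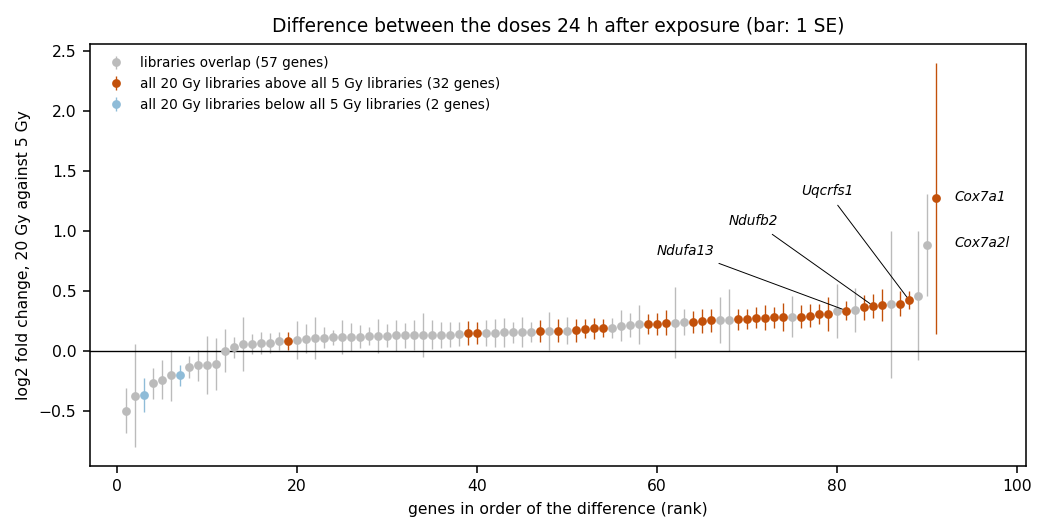
Log2 fold change of 20 Gy against 5 Gy at 24 h on log2(FPKM + 1) (y axis) for the 91 genes in order of the difference (x axis). Points are estimates and bars are 1 SE. The 20 Gy libraries are all above the 5 Gy libraries in 32 genes and all below in 2, and the 3 genes with an adjusted p under 0.05 are named beside Cox7a1 and Cox7a2l, which have the largest differences and large errors.

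The called subunits had the shorter transcripts at the median. The 34 subunits of complexes I to V called lower 24 h after 5 Gy had a median transcript length of 557.5 bases, compared with 823 bases for the other 45. Lengths were taken from the named row with the highest mean FPKM of each gene. In 14 of the 91 members, named rows held under 50% of the FPKM, so their lengths may not be those of the main transcript. For Uqcrq, entered at 1494 bases, named rows held 6.5%. Among the 39 shorter subunit transcripts, 22 were called lower after 5 Gy and 10 after 20 Gy. Among the 40 longer ones, 12 and 4 were called. Of all genes tested, 20.8% were called lower after 5 Gy and 23.3% after 20 Gy. The median log2 change after 5 Gy was -0.64 in the shorter and -0.43 in the longer transcripts. The part of transcript length in the result was not tested.

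Promoter sequences of 4 members are shown because their changes at 24 h differ, from the large falls of Uqcrfs1, Ndufa11 and Ndufaf1 to the level of Sdha, which overlapped with the control group. Each line gives the 160 bases before the annotated start of the gene from RefSeq (assembly GRCr8, not the Rnor_6.0 build of the expression table), read 5′ to 3′ on the strand of the gene. The windows are chr17:34186442-34186601, forward strand for Uqcrfs1, chr9:1637454-1637613, forward strand for Ndufa11, chr3:127104021-127104180, reverse strand for Ndufaf1 and chr1:30764393-30764552, forward strand for Sdha. Capitals mark matches to the motif of NRF1, searched as GCGCA, any base and GCGC, or of the ETS family that includes GABP, searched as CCGGAAG, on either strand.
Uqcrfs1: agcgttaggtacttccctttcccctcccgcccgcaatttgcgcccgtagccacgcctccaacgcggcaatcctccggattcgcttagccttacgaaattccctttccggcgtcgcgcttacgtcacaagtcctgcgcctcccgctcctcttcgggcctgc
Ndufa11: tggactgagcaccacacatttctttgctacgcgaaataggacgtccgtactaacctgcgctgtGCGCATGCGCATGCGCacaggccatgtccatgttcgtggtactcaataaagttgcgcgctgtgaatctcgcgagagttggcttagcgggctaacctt
Ndufaf1: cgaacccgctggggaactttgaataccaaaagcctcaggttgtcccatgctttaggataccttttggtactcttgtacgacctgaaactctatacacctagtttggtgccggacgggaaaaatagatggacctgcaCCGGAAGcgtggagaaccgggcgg
Sdha: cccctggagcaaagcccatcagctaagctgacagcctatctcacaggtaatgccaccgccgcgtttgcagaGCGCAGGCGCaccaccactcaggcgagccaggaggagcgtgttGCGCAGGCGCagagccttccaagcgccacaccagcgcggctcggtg

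The Ndufa11 promoter holds 2 overlapping NRF1 matches, the Ndufaf1 promoter an ETS match and the Sdha promoter 2 NRF1 matches in the bases shown. The Uqcrfs1 bases hold none of these letters. NRF1, the ETS factor GABP and YY1 are known as regulators of nuclear genes of the respiratory chain. Windows from before to just after each start, 300 bases long, were matched for 78 of the 91 members. The ETS letters were found in 29.5% of these windows, compared with 9.22% of all 27457 windows and 18.7% of those of tested genes. The NRF1 letters were found in 21.8% of the members, 4.71% of all windows and 10.7% of those of tested genes. The YY1 letters, AAGATGG, were found in 24.4%, 7.30% and 8.70%. At least 1 of the 3 motifs was found in 61.5% of the members, 18.95% of all windows and 32.8% of those of tested genes.

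Among the members with a window, 35 were called lower 24 h after 5 Gy and 43 were not. The ETS letters were found in 37.1% of the former and 23.3% of the latter. The YY1 letters were found in 22.9% and 25.6%, and the NRF1 letters in 20% and 23.3%. The matches describe the windows and were not tested as sites.

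Other genes of the pathway were examined from lists of related genes. Their counts stand beside 20.8% of all genes called lower and 20.5% higher 24 h after 5 Gy, and 23.3% and 17% after 20 Gy. Of 11 further genes of the chain and of ATP transport, 6 were called lower and 1 higher 24 h after 5 Gy, and 4 lower and none higher after 20 Gy. Cycs, which encodes cytochrome c, was at 21.8, 18.5 and 28.8 FPKM in the control group, 7.51, 8.67 and 9.5 FPKM after 5 Gy and 7.72, 11.6 and 4.54 FPKM after 20 Gy, with log2 changes of -1.31 and -1.48. The adenine nucleotide carriers Slc25a4 and Slc25a5, which exchange ATP for ADP, fell by 0.93 and 1.18 on the log2 scale after 5 Gy. Vdac1, the main channel of the outer membrane, changed in the other direction, by 0.65 after 5 Gy, whereas its paralogs Vdac2 and Vdac3 changed by -0.62 and -0.65.

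Of 35 further assembly factors, 14 were called lower and 3 higher after 5 Gy, and 12 lower and 3 higher after 20 Gy. Uqcc3, which is needed for complex III, was at 23.4, 28.7 and 33.5 FPKM in the control group and 5.26, 4.2 and 4.59 FPKM 24 h after 5 Gy, a log2 change of -2.37 ± 0.14 (SE), adjusted p = 4.24e-08. Cox11, which inserts copper into complex IV, rose from 3.8, 3.49 and 3.95 FPKM to 11.7, 11 and 12.6 FPKM, a log2 change of 1.43 ± 0.10 (SE), adjusted p = 1.04e-07.

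The regulators of mitochondrial genes showed mainly higher levels. Of 19, 9 were called higher and 1 lower after 5 Gy, and 5 higher and 2 lower after 20 Gy. Esrra, a nuclear receptor that activates genes of the chain, was at 11.1, 10.6 and 11.8 FPKM in the control group, 34.9, 34.6 and 37.3 FPKM after 5 Gy and 31.2, 23.8 and 37 FPKM after 20 Gy. Gabpb1, a subunit of GABP, changed by 1.66 and 1.44, and Myc by 2.10 and 2.20. Polg, the polymerase that copies mitochondrial DNA, was lower at both doses (-0.77 and -0.99). The median log2 change of the regulators was 0.61 after 5 Gy and 0.25 after 20 Gy, whereas that of the members was -0.53 and -0.37.

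Of 11 genes of the mitochondrial chromosome, 4 were called lower 24 h after 5 Gy and 5 after 20 Gy, and none higher. Mt-nd5, a proton-pumping subunit of complex I, was at 669.5, 607 and 722 FPKM in the control group, 243, 247 and 221 FPKM after 5 Gy and 242, 199 and 147 FPKM after 20 Gy. Mt-co1, the catalytic subunit of complex IV, was at 6778, 6368 and 7553 FPKM, 6512, 6539 and 6272 FPKM and 6910.1, 7616 and 5562 FPKM, and its groups overlapped. The call of Mt-nd2 after 20 Gy rests on 2 libraries in which it was listed at 0. Mt-co3, Mt-nd4 and Mt-nd4l were below 0.5 FPKM in all libraries but 1.

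Among further lists, 28 of 74 genes of the mitochondrial ribosome were called lower after 5 Gy and 24 after 20 Gy, with medians of -0.49 and -0.42. Of 16 genes of the citric acid cycle and pyruvate entry, 4 were called lower after each dose, a share of 25% that is near the 20.8% and 23.3% of all genes, with medians of -0.29 and -0.21. Of 17 glycolysis genes, 9 were called lower after 5 Gy and 8 after 20 Gy, with medians of -0.71 and -0.57. At 12 h, 4 of the glycolysis genes were already called lower after each dose, compared with 4.96% and 3.64% of all genes. The 81 genes of the cytosolic ribosome had medians of -0.20 and -0.06, and 2 of them were called lower after each dose. These medians can be read beside the -0.53 and -0.37 of the members, and no list was tested against another.

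**Figure D5:**
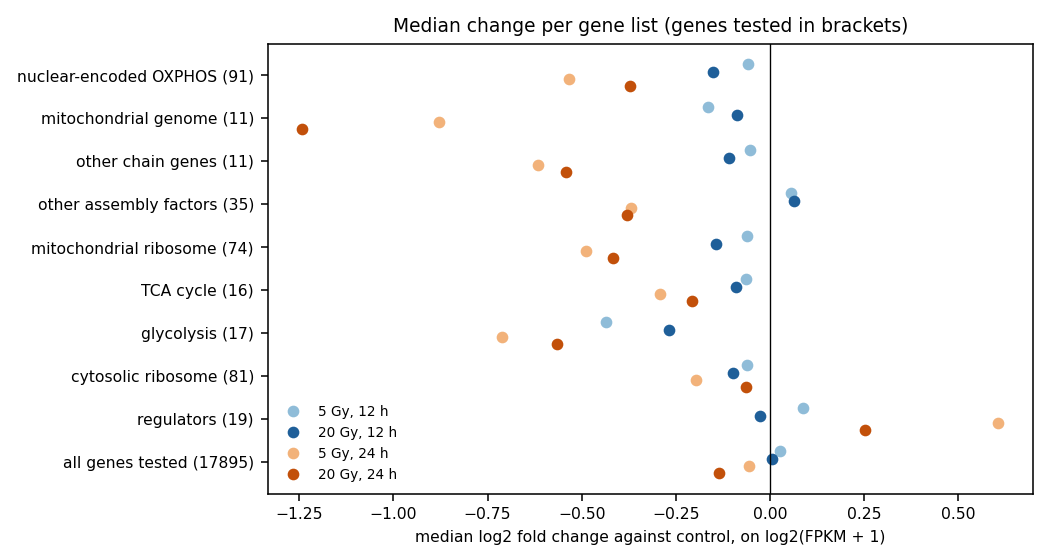
Median log2 fold change against the control group on log2(FPKM + 1) (x axis) of the oxidative phosphorylation (OXPHOS) genes, 8 other gene lists and all genes tested (y axis, number of genes in brackets), with 1 point per exposed group. At 24 h, the members stand at -0.53 and -0.37, the regulators at 0.61 and 0.25, and all genes tested at -0.05 and -0.14.

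Some members were measured with less certainty. The rows of 34 members included assembled transcripts without a name in the same locus, and in 14 these held more FPKM than the named rows. The loci of 8 members carry a second gene name, so reads of both genes may be mixed. Atp5pf, a stalk subunit of complex V, had 8.78 FPKM in its named row, while 74.7 FPKM of unnamed transcripts lay in the locus it shares with Mrpl39 and could not be assigned. Atp5pb shares its locus with LOC100911417, whose transcripts have the same lengths, so reads may be split between both. It was at 53.8, 53.4 and 31.9 FPKM in the control group and 45.5, 54 and 14.2 FPKM 24 h after 20 Gy. The calls of Uqcrfs1, Ndufa11 and Atp5if1 rest on a single named transcript each.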

How the data were processed

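Poly-A RNA of 15 libraries from 5 groups was sequenced with 150-base reads. The authors trimmed reads (Trimmomatic, FastQC), aligned them to Rnor_6.0 (HISAT2 2.0.13), assembled transcripts (StringTie) and deposited FPKM per transcript. Their notes also name kallisto and edgeR for counts, which were not used here. FPKM depends on the assembly, on transcript length and on the total of each library. Depth was read from the steps between low FPKM values, of which 78.0% to 83.5% were whole multiples of 1 aligned base within a tolerance of 0.1.

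FPKM was summed per gene over its named transcripts and the unnamed transcripts of loci with 1 gene name, which gave 37367 genes. Genes with a mean of at least 0.5 FPKM (17895) were compared as log2(FPKM + 1) with limma 3.58.1 (R 4.3.3, trended empirical Bayes, all 15 libraries in 1 model, two-sided, Benjamini-Hochberg adjustment), with a minimum fold change of 1.5. On simulated data for 5 Gy 24 h against control with 17895 genes, 82 of 100 genes with a simulated log2 change of 1 and 56 of 100 with one of 0.7 were recovered, with 1 false call. Alternatives were another pseudocount, filter, normalization, set of libraries, summing of transcripts, fold limit, a replicate block and each library left out.

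The members, gene lists and markers were chosen with earlier results of these data known. Genes given with values were the core subunits, isoforms and the inhibitor, the 5 largest called changes in each direction per comparison with the control group, the 3 highest and the lowest member of each complex by mean FPKM, members called between doses, and members next to the limit of 0.5 FPKM, with up to 4 called genes from each other list. Genes named outside these rules, such as Atp5mf, Atp5me, Atp5f1d, Ndufaf8, Uqcrb, Uqcr10, Ndufb2, Vdac1, Vdac2 and Vdac3, were chosen after their values were seen. Symbols matched RefSeq (GRCr8) by name for 97 of 98 members, and promoter windows came from RefSeq. The main rows of Ndufa10l1, Cox7a2l2, Uqcrb and Ndufs6 lie on another chromosome than the RefSeq gene of that name. The values of 1 member are not reported here, although the counts and sums include it.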

Additional observations from a re-analysis of the deposited data

Results flagged for a closer look

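The direct comparison of the doses at 24 h set 3 members apart, because the change against the control group differed between 5 Gy and 20 Gy in the test of the difference itself (limma, adjusted over all genes). Uqcrfs1 was higher after 20 Gy than after 5 Gy by 0.4258 on the log2(FPKM + 1) scale (SE 0.0751, adjusted p = 0.00855). Ndufa13 was higher after 20 Gy by 0.338 (SE 0.0797, adjusted p = 0.0322) and Ndufb2 by 0.3773 (SE 0.0985, adjusted p = 0.0499). The 3 libraries of each dose did not overlap in these genes, and all 3 differences were under the fold limit of 1.5. At 24 h, the fibroblast markers summed to 284 to 314 FPKM after 5 Gy and 272 to 326 FPKM after 20 Gy, which overlapped, and the pericyte markers to 24.3 to 26.9 FPKM and 16 to 21.3 FPKM, which did not. Their part in the differences between doses was not tested.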

How the results depend on the processing

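The lower level of the members at 24 h kept the direction of its median and of its complex sums in every alternative run, and the number of calls depended on the scale. Shares of all genes called are not given for the alternatives, so an excess of called members cannot be read from their counts. After 5 Gy, 21 members were called at 24 h with quantile normalization or with FPKM rescaled to the same sum, 69 with no minimum fold and 8 with a fold of at least 2, and the median was -0.34 and -0.40 under those scalings. After 20 Gy, 11 were called after rescaling, 55 with no minimum fold and 4 with a fold of at least 2, and the median was -0.18 with quantile normalization. Between 24 h and 12 h after 5 Gy, the counts were 18 after rescaling, 68 with no minimum fold and 3 with a fold of at least 2, and the medians -0.33 (quantile) and -0.38 (rescaled). After 20 Gy, they were 5 (quantile), 33 and 1, and the median -0.10 (quantile). Without a minimum fold, 3 members were called between doses at 24 h. At 12 h, 0 members were called after 5 Gy with named transcripts alone, 1 with the highest transcript of each gene, 5 with no minimum fold and 1 with a fold of at least 2. After 20 Gy, 2 were called with quantile normalization or with the compared groups alone, 3 with no minimum fold and 0 with a fold of at least 2.

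The log2 ratios of the sums at 24 h after 5 Gy were -0.41 (rescaled) and -0.40 (quantile) for complex I, -0.27 and -0.19 for II, -0.53 and -0.43 for III, -0.37 and -0.22 for IV and -0.36 and -0.23 for V. After 20 Gy they were -0.28 and -0.18 for I, -0.29 and -0.18 for V and, with quantile normalization, -0.074 for II, -0.22 for III and -0.062 for IV. At 12 h after 5 Gy they turned to 0.032 for IV and 0.0042 for V with quantile normalization. Without 1 library, the calls ranged from 1 to 3 and 1 to 1 at 12 h (5 Gy and 20 Gy), 28 to 42 and 13 to 24 at 24 h, 27 to 32 and 7 to 15 between times, 0 to 0 and 0 to 1 between doses at 12 h and 24 h, and 0 to 0 for the difference in change. The sums without 1 library ranged from -0.12 to 0.027, -0.22 to -0.066, -0.62 to -0.47 and -0.42 to -0.27 for complex I (5 Gy and 20 Gy at 12 h, then at 24 h) and from -0.14 to 0.0195, -0.15 to 0.0064, -0.58 to -0.42 and -0.31 to -0.15 for IV, with the value nearest 0 or above it without the third control library. Ndufs7 reversed to 3.35 24 h after 5 Gy, both with named transcripts alone and with the highest transcript of each gene. Of 8214 repeated tests of 49 named genes, 7908 kept direction and call, 184 lost the call, 120 gained it and 2 reversed. The causes were not tested.

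No pairing of the libraries by replicate number was seen. Same-numbered libraries correlated between -0.177 and 0.232 and different numbers between -0.209 and 0.203. Of 15 libraries, 4 correlated best with their own number. With 3 libraries per group, this check could miss a pairing. With a replicate block, 39 members were called 24 h after 5 Gy, 19 24 h after 20 Gy, 3 and 1 at 12 h, 28 and 12 between times and 0 between doses. The log2(FPKM + 1) scale shrinks the changes of members near 1 FPKM.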

Other observations

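A few members had libraries of the same group at very different levels. Cox7a1 was above 10 FPKM in the control replicate 1, in replicates 1 and 2 12 h after 20 Gy and in replicate 2 24 h after 20 Gy, and below 1 FPKM in all others. Cox7a2l was above 120 FPKM in control replicate 3 and in replicates 2 and 3 of both 20 Gy groups, and between 50.4 and 64.3 FPKM elsewhere. Uqcr10 was between 15.6 and 26.5 FPKM in control replicate 2, replicate 2 12 h after 5 Gy and 4 libraries at 24 h, and between 60.0 and 89.0 FPKM in the others. In Cox7a1 and Cox7a2l, the unnamed transcripts held 3.92 and 81.3 of a mean of 4.21 and 85.3 FPKM.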
